A study of Mus musculus with 21 samples.

Results

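The genes described here are Wdr91, Kmt5a, Cnnm4, Coprs and Lrrc14b, which were higher in livers without hepatocyte Mboat7 than in wild-type livers on chow, and Cgref1, Slc6a16, Efna5, Xrcc4 and Hykk, which were lower. These 10 of the 55418 gene symbols counted were picked by their chow values in an earlier analysis, where no knockout library overlapped a wild-type library. The chow values are therefore given as a description without a test. All 10 were among the 15677 genes that passed the low-count filter. The question put to the data was whether the difference held on the other diet, whose livers were not used in the choice, and in single livers.

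Mboat7 encodes an enzyme that esterifies arachidonic acid to lysophosphatidylinositol and so keeps the phosphatidylinositol of membranes rich in that fatty acid. Phosphatidylinositol is the parent of the phosphoinositides that mark endosomes. The 10 genes do not form a pathway: they act in endosomes, chromatin, ion and solute transport, cell contact, DNA repair and amino acid breakdown.

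Whole mouse livers were sequenced as total RNA in 4 groups. The knockout (KO) had Mboat7 deleted in hepatocytes, and the controls (WT) had wild-type Mboat7. Chow livers came from mice 10 weeks old (6 WT and 7 KO libraries), and the others from mice put at 6 to 8 weeks of age on a diet high in fat, with little methionine and short of choline (HFMCD) for 6 weeks (4 WT and 4 KO libraries). The driver of the deletion, the strain and the sex are not given in the sources used here, and the deletion is labelled for hepatocytes only. Diet went together with age and with the range of the numbers in the sample titles, so these cannot be told apart. No label says which libraries are separate animals, so p-values measure the spread between these libraries, and a liver here stands for 1 library.

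Libraries held 17502231 to 25822972 counts. Mboat7 was lower in each KO library than in all WT libraries on its diet, with edgeR log2 fold changes of -0.76 (SE 0.07, adjusted p = 3.9e-06) on chow and -0.94 (SE 0.09, adjusted p = 7.5e-06) on HFMCD. The 9 hepatocyte markers found summed to at least 95495 CPM (counts scaled to the library total with TMM factors, the unit used throughout) in every library, and none was at 0. Gland mucosa markers summed to 127 CPM in KO chow replicate 1, 65.8 in KO chow replicate 7, 49.8 in WT chow replicate 3 and 32.8 in WT chow replicate 5, and KO chow replicate 7 also held 1133 CPM of skeletal muscle markers. The median KO chow library held 0.94 CPM of gland mucosa and 4.998 CPM of skeletal muscle markers.

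Promoter sequences are shown for the 3 genes whose KO and WT libraries also stayed apart on HFMCD, as described further on. They are the RefSeq windows on GRCm38.p6, from 250 bases before to 50 bases after the annotated start, read 5′ to 3′ on the gene's strand. Capitals mark every match on either strand to 5 short motifs searched, which were TATAAA (the TATA box), CCAAT (the CCAAT box), GGGCGG (the GC box), CACGTG (the core of the E-box) and TGACTCA (the AP-1 site). The windows lie at chr7:45240503-45240802 on the plus strand, chr9:54917040-54917339 on the plus strand and chr13:74363951-74364250 on the minus strand.
Slc6a16: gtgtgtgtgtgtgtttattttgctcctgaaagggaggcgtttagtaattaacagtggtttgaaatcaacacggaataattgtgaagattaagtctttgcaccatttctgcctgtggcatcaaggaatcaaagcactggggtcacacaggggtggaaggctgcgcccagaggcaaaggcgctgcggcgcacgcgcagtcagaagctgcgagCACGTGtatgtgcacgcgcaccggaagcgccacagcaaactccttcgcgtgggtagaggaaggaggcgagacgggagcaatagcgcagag
Hykk: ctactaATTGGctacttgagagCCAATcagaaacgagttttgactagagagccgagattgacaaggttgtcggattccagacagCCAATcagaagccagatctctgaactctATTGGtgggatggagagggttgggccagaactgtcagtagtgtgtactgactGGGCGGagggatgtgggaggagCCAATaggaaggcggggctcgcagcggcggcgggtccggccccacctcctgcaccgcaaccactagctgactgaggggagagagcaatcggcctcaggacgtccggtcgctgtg
Lrrc14b: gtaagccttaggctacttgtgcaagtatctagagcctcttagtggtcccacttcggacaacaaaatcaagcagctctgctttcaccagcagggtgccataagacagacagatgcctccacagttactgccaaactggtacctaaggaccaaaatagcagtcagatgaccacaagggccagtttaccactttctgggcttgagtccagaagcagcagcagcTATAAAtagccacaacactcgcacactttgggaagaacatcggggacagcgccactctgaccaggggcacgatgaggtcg
The Slc6a16 window held 1 CACGTG, which 7.2% of 32544 promoters of this length hold. The Hykk window held CCAAT at 5 places (37.4% of promoters hold at least 1) and GGGCGG at 1 place (35.9% of promoters). The Lrrc14b window held 1 TATAAA (13.6% of promoters). RefSeq gave a window for 9 of the 10 genes, and the 3 shown shared none of the 5 motifs. A match says only that these letters occur.

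On chow the 5 genes higher in KO were spread over roles and over levels. Wdr91, an endosomal protein that restrains class III phosphatidylinositol 3-kinase and helps endosomes mature (chromosome 6, 34880426 to 34910876, minus strand, GRCm38), ran from 16.3 to 27.1 CPM in WT with a median of 21.9, and from 30.2 to 56.0 CPM in KO with a median of 33.7. Kmt5a, the enzyme that places the first methyl group on lysine 20 of histone H4 (chromosome 5, 124439930 to 124462308, plus strand), ran from 26.1 to 33.5 CPM in WT (median 27.4) and from 36.6 to 58.1 CPM in KO (median 41.1). In both genes KO chow replicate 6 was the highest liver, and the other 6 KO livers lay closer to WT. Cnnm4, a magnesium transporter of the basolateral membrane (chromosome 1, 36471620 to 36508764, plus strand), ran from 5.98 to 7.51 CPM in WT (median 6.26) and from 8.04 to 11.6 CPM in KO (median 9.55).

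Coprs recruits the arginine methyltransferase PRMT5 to histones (chromosome 8, 13884794 to 13890281, minus strand). It ran from 1.57 to 3.42 CPM in WT (median 2.71) and from 3.42 to 5.09 CPM in KO (median 4.52), so that the lowest KO liver and the highest WT liver met. Lrrc14b, a leucine-rich repeat gene (chromosome 13, 74359578 to 74364005, minus strand), ran from 1.07 to 1.67 CPM in WT (median 1.304) and from 1.69 to 4.33 CPM in KO (median 2.44). Its highest value was in KO chow replicate 7, the library with skeletal muscle transcripts, and the part of those transcripts in it was not tested; without that library its log2 fold change on chow was 0.69, against 0.88 with it. All 2755 exon bases of Lrrc14b lie over exons of Ccdc127 on the other strand, and with no stated strand setting reads of the pair cannot be told apart. Ccdc127 itself was at 0.15 in log2 fold change on chow (SE 0.07, edgeR adjusted p = 0.27).

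Among the 5 genes lower in KO on chow, Cgref1, an EF-hand gene named as a regulator of cell growth (chromosome 5, 30933143 to 30945591, minus strand), stood farthest from WT. It ran from 1.90 to 9.63 CPM in WT (median 3.73) and from 0.58 to 1.79 CPM in KO (median 0.98), and the WT livers alone spanned a wider range than any other gene of the 10 relative to their median. Slc6a16, an orphan member of the SLC6 solute carriers (chromosome 7, 45241085 to 45273367, plus strand), ran from 3.12 to 5.65 CPM in WT (median 3.47) and from 1.47 to 3.08 CPM in KO (median 1.92). Efna5, the ligand ephrin-A5 that binds Eph receptors on neighbouring cells (chromosome 17, 62604184 to 62881317, minus strand), ran from 5.91 to 8.81 CPM in WT (median 7.58) and from 2.86 to 5.90 CPM in KO (median 4.92).

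Xrcc4, the partner of DNA ligase 4 in the joining of broken ends (chromosome 13, 89774027 to 90089608, minus strand), ran from 5.26 to 8.16 CPM in WT (median 7.27) and from 4.28 to 5.24 CPM in KO (median 4.88). Its exons share 112 bases with Tmem167 on the other strand, whose log2 fold change on chow was -0.05 (SE 0.07, edgeR adjusted p = 0.76). Hykk, the kinase that phosphorylates hydroxylysine for its breakdown (chromosome 9, 54917283 to 54949924, plus strand), ran from 96.7 to 154 CPM in WT (median 109) and from 58.05 to 92.6 CPM in KO (median 83.6). KO chow replicate 6 was the lowest liver for Hykk, and WT chow replicate 5 the highest.

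The chow log2 fold changes of these genes were 0.81 for Wdr91, 0.62 for Kmt5a, 0.58 for Cnnm4, 0.79 for Coprs and 0.88 for Lrrc14b, and -2.07 for Cgref1, -0.91 for Slc6a16, -0.66 for Efna5, -0.55 for Xrcc4 and -0.53 for Hykk. KO and WT libraries did not overlap on chow in 0.657% of all genes tested, and 2.17% were called at an edgeR adjusted p under 0.05 (0.561% higher and 1.61% lower). In 0.236% KO lay above WT and in 0.421% below. Since the rule used these values, nothing is read from them. The narrowest gaps inside the rule were those of Coprs (0.0017 log2 CPM between the nearest KO and WT livers) and Efna5 (0.0023). Just outside it stood Tspan17, whose groups overlapped by 0.0031 log2 CPM (log2 fold change 0.83, gap -0.0031), and Parp12 (log2 fold change -0.30, gap -7.2e-05). Levels per kilobase of exon in WT chow livers ran from 13.2 CPM per kb for Hykk, 5.42 for Kmt5a, 4.66 for Wdr91, 2.22 for Cgref1, 1.85 for Efna5, 1.67 for Xrcc4, 1.35 for Cnnm4, 1.24 for Slc6a16 and 0.94 for Coprs to 0.50 CPM per kb for Lrrc14b. In that order the 6 livers of Hykk (10.8 to 17.2 CPM per kb) stood above those of every other gene, while the ranges of all other neighbours in the order overlapped.

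**Figure D1:**
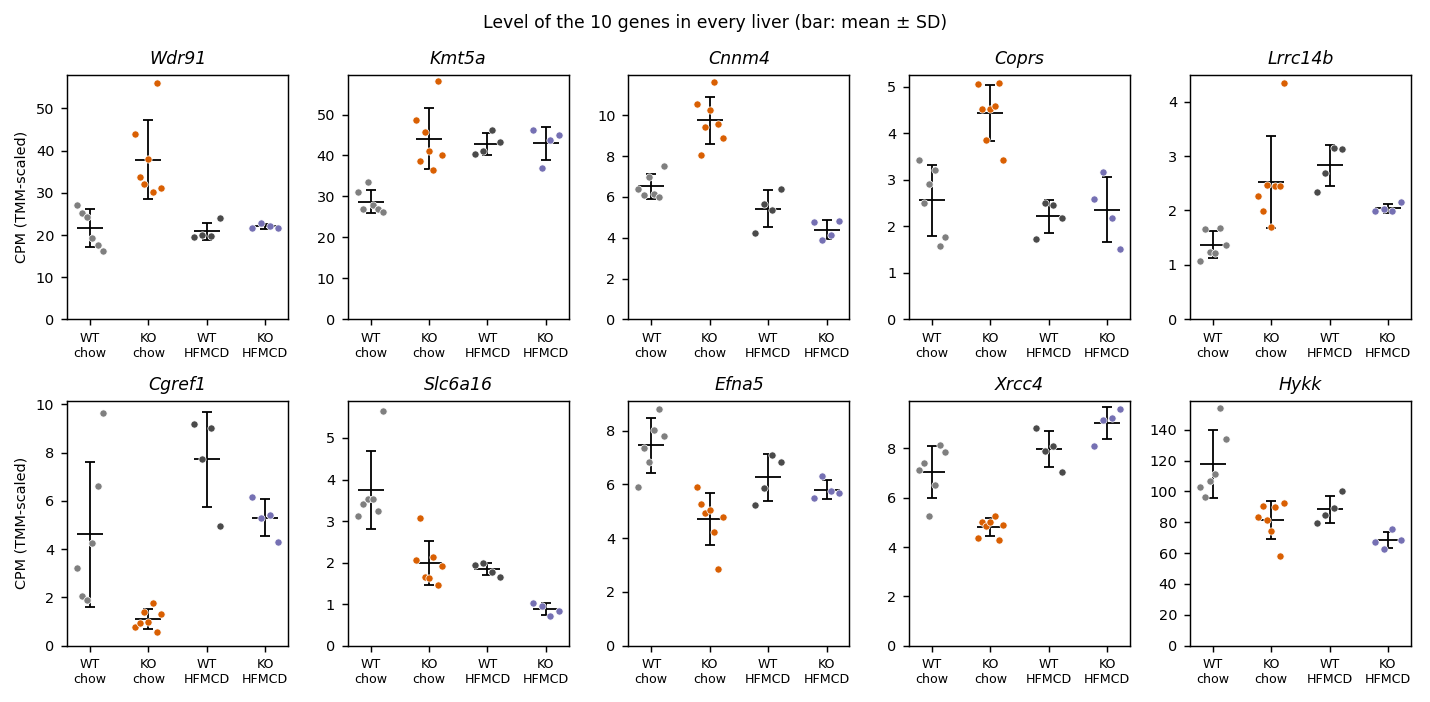
CPM of each gene (y axis, from 0) in every library (points) of the 4 groups (x axis), with the mean and SD as bars. On chow the KO points lie above WT in the upper row and below WT in the lower row, as the choice required; on HFMCD only Lrrc14b, Slc6a16 and Hykk keep their groups apart, Lrrc14b with KO below WT.

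On HFMCD none of the 10 genes was called, where 0.319% of all genes tested were (edgeR adjusted p under 0.05; 0.223% higher and 0.0957% lower). DESeq2 and limma-voom each called 1 of the 10, Slc6a16, where they called 1.23% and 2.05% of all genes tested. In the edgeR fit 3 of the 10 had an unadjusted p under 0.05, where 9.96% of all genes had. Slc6a16 and Hykk were lower in every KO than in every WT liver, as on chow, and Lrrc14b was lower too, against its chow direction. So 2 of the 10 genes had groups apart in their chow direction, where 8.62% of all genes were apart, 3.66% with KO below WT and 4.96% with KO above. Without WT HFMCD replicate 4 it was 4 of the 10, with Wdr91 and Cgref1 added, where 13.2% of all genes were apart in either direction (6.63% with KO above and 6.62% below). The sign of the log2 fold change was that of chow in 7 of the 10, where 51.1% of all genes had a positive sign, and in 5 to 7 over the alternatives. Their median HFMCD log2 change in the chow direction was 0.08, and it was 0.016 without WT HFMCD replicate 1 and 0.049 without WT HFMCD replicate 3. With the sign left off, their median HFMCD change was 0.24, where that of all genes tested was 0.14. Of all genes whose chow libraries did not overlap, 67.0% had the same sign on HFMCD and 9.71% were apart there in the same direction.

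Slc6a16 came nearest to the threshold. Its WT livers stood at 1.94, 1.99, 1.77 and 1.66 CPM on HFMCD and its KO livers at 1.03, 0.96, 0.72 and 0.83 CPM. The highest KO liver lay 0.64 log2 CPM under the lowest WT liver. WT averaged 1.84 CPM ± 0.15 (SD, n = 4) and KO 0.89 CPM ± 0.14 (SD, n = 4), a log2 fold change of -1.05 (SE 0.25, 95% interval -1.56 to -0.55, edgeR adjusted p = 0.065). This gene rests on 20 to 51 reads per HFMCD library. DESeq2 called it, with an adjusted p = 0.012, and so did limma-voom (adjusted p = 0.025) and an edgeR fit to the 8 HFMCD libraries alone (adjusted p = 0.032). Leaving KO chow replicate 2 or WT chow replicate 6 out of the edgeR fit also gave a call (adjusted p = 0.043 and adjusted p = 0.037), and adjusted p-values over all alternatives ran from 0.012 to 0.22.

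Hykk was lower in KO with a smaller difference. Its WT livers stood at 79.6, 84.9, 89.3 and 100.3 CPM and its KO livers at 67.3, 62.9, 75.6 and 68.5 CPM on HFMCD. The means were 88.5 CPM ± 8.78 (SD, n = 4) and 68.6 CPM ± 5.30 (SD, n = 4), and the log2 fold change was -0.37 (SE 0.14, 95% interval -0.65 to -0.09, edgeR adjusted p = 0.34).

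Lrrc14b and Cnnm4 pointed the other way on HFMCD. Lrrc14b stood at 2.35, 2.70, 3.15 and 3.12 CPM in WT and at 1.99, 2.02, 1.99 and 2.15 CPM in KO, with every KO liver under every WT liver. Its log2 fold change was -0.47 (SE 0.23, 95% interval -0.95 to 0.01, edgeR adjusted p = 0.52), and Ccdc127, over whose exons it lies, was at 0.03 (SE 0.09, edgeR adjusted p = 0.96). Cnnm4 stood at 4.24, 5.67, 5.36 and 6.40 CPM in WT and at 4.77, 3.90, 4.13 and 4.80 CPM in KO. The groups overlapped through WT HFMCD replicate 1, and the log2 fold change was -0.30 (SE 0.14, 95% interval -0.60 to -0.01, edgeR adjusted p = 0.49).

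For Xrcc4 the HFMCD livers also leaned against chow. WT livers stood at 8.82, 7.89, 8.11 and 7.05 CPM and KO livers at 8.10, 9.15, 9.23 and 9.59 CPM, which overlapped (log2 fold change 0.18, SE 0.13, 95% interval -0.09 to 0.45, edgeR adjusted p = 0.70). All 4 KO livers on HFMCD held more Xrcc4 than any KO liver on chow, but the low KO chow values chose the gene, so nothing is read from this. Cgref1 kept its chow sign, at 9.19, 7.74, 9.04 and 4.94 CPM in WT and 6.16, 5.29, 5.43 and 4.30 CPM in KO. WT HFMCD replicate 4 lay among the KO livers, and the log2 fold change was -0.54 (SE 0.38, 95% interval -1.33 to 0.24, edgeR adjusted p = 0.69).

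The HFMCD groups of the remaining genes overlapped around values near 0. Wdr91 stood at 19.6, 20.1, 19.8 and 23.9 CPM in WT and at 21.8, 22.8, 22.05 and 21.6 CPM in KO (log2 fold change 0.08, SE 0.17, edgeR adjusted p = 0.94). Kmt5a stood at 40.4, 41.1, 46.3 and 43.4 CPM in WT and at 46.2, 37.0, 43.8 and 44.9 CPM in KO (log2 fold change 0.01, SE 0.12, edgeR adjusted p = 0.995). The 95% intervals were -0.28 to 0.44 for Wdr91 and -0.24 to 0.25 for Kmt5a. Coprs ran from 1.73 to 2.50 CPM in WT livers and from 1.51 to 3.16 CPM in KO (log2 fold change 0.09, SE 0.24, edgeR adjusted p = 0.96), and Efna5 from 5.23 to 7.10 CPM in WT and from 5.48 to 6.32 CPM in KO (log2 fold change -0.11, SE 0.17, edgeR adjusted p = 0.91).

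**Figure D2:**
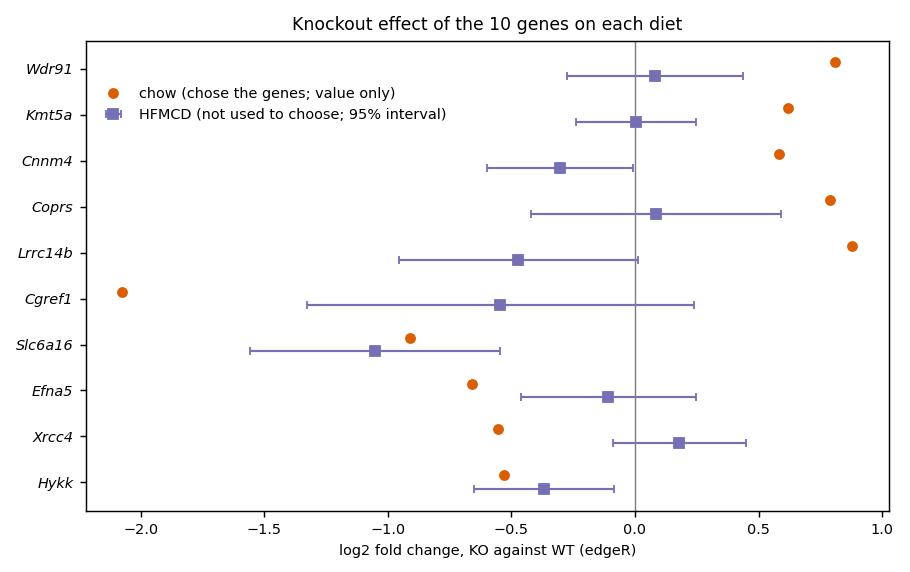
Log2 fold change of KO against WT (x axis) for each gene (y axis) on chow (circles, the values that chose the genes, shown without error) and on HFMCD (squares with the 95% interval of the edgeR fit). The HFMCD interval lies wholly below 0 for Cnnm4, Slc6a16 and Hykk and holds 0 for the other 7 genes.

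The differences of the KO effect, HFMCD minus chow, were -0.73 (SE 0.22) for Wdr91, -0.61 (SE 0.15) for Kmt5a, -0.88 (SE 0.18) for Cnnm4, -0.70 (SE 0.31) for Coprs and -1.35 (SE 0.30) for Lrrc14b. They were 1.53 (SE 0.50) for Cgref1, 0.55 (SE 0.22) for Efna5 and 0.73 (SE 0.17) for Xrcc4, and -0.14 (SE 0.30) for Slc6a16 and 0.16 (SE 0.17) for Hykk. These differences were not tested, because the chow side of each chose the gene. Bile duct markers (10 genes) summed on HFMCD to 215 to 256 CPM in WT livers and 575 to 825 CPM in KO livers, and stellate cell markers (10 genes) to 1245 to 1512 and 1533 to 1774 CPM. For 10 endothelial markers the sum lay between 544 and 635 CPM in WT livers, and between 496 and 531 CPM in KO livers. The bile duct marker Sctr was at 0 in at least 1 WT HFMCD library, no other marker of these lists was at 0 in any HFMCD library, and their part in the HFMCD values was not tested. In whole liver, fewer cells of a type and less RNA per cell cannot be told apart.

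Single KO livers on chow lay beyond all WT livers in all 10 genes, which the choice fixed, but by different amounts. The median deviation from the WT mean, taken in the chow direction over the 10 genes, was 1.02 log2 CPM in KO chow replicate 6, between 0.53 and 0.77 in replicates 1, 3, 4, 5 and 7, and 0.48 in replicate 2. Replicate 6 had the largest deviation of the 7 livers in 8 of the genes, replicate 5 in Cnnm4 and replicate 7 in Lrrc14b. In KO chow replicate 2 Slc6a16 stood at 3.08 CPM, next to the lowest WT liver at 3.12 CPM. On HFMCD the median deviation was 0.14, 0.05, 0.06 and 0.06 log2 CPM in KO replicates 1 to 4, and each of these livers lay beyond all WT livers of its diet in the chow direction in 3, 3, 2 and 3 of the 10 genes and in the other direction in 1, 4, 3 and 3. Over all genes tested these 4 livers lay above all WT livers in 20%, 28.9%, 25.7% and 28.4% and below them in 20.9%, 25.7%, 23.8% and 26.5%, so the counts of the 10 genes are near the background.

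**Figure D3:**
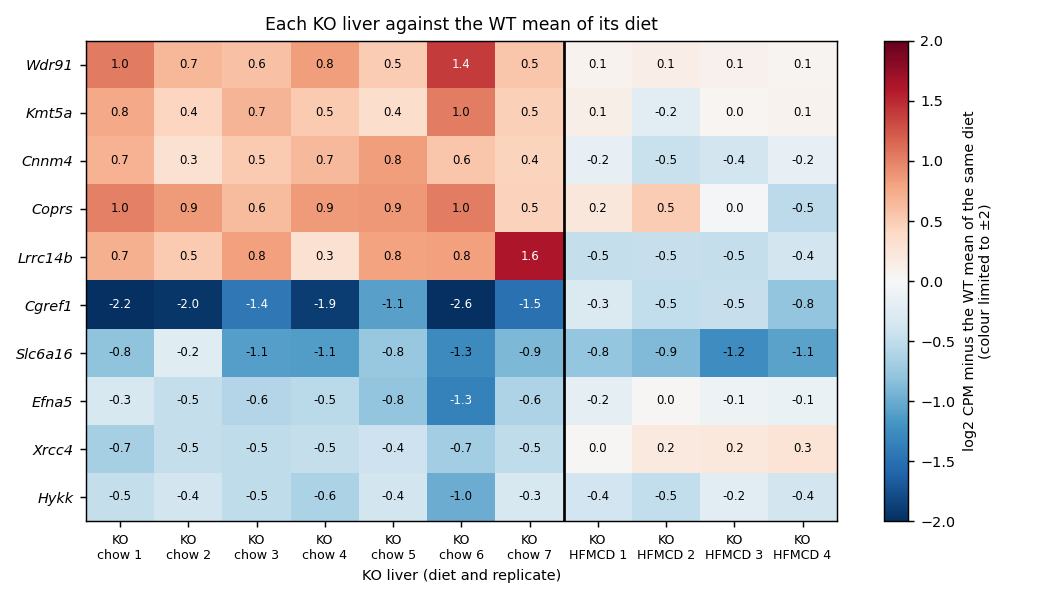
Log2 CPM of each gene (rows) in each KO liver (columns, chow left of the line and HFMCD right of it) minus the WT mean of the same diet. Rows of Cgref1, Slc6a16 and Hykk are below 0 and that of Wdr91 above 0 in all 11 livers, the Wdr91 values on HFMCD being at most 0.13, and the Lrrc14b row changes from above 0 in 7 chow livers to below 0 in 4 HFMCD livers.

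The numbers in the titles of the chow samples fall into 3 runs that hold both genotypes, with 1 WT sample apart from them. What the numbers stand for is not given in the sources used here. Wdr91 was 0.46 log2 CPM higher in KO in the first run (2 WT and 3 KO), 0.48 in the second (1 WT and 2 KO) and 1.17 in the third (2 WT and 2 KO). Cgref1 was at -1.30, -0.49 and -2.47 and Hykk at -0.23, -0.38 and -0.84 in the same order. The direction in each run was fixed by the choice of genes whose groups did not overlap, so that only the sizes are of note. The smallest value was that of Xrcc4 in the second run, at -0.04. Cnnm4 differed least between runs, at 0.57, 0.64 and 0.60.

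The diet was compared within each genotype and by the mean over the 8 HFMCD libraries against the mean over the 13 chow libraries. The pooled contrast called 76.5% of all genes tested (edgeR adjusted p under 0.05; 36.6% higher and 39.9% lower on HFMCD). The chow mean in it includes the KO livers whose distance from WT chose the 10 genes, so their diet values are a description with no test. In WT livers alone the log2 change on HFMCD was 1.04 for Lrrc14b, 0.74 for Cgref1, 0.57 for Kmt5a and 0.18 for Xrcc4, and -0.06 for Wdr91, -0.21 for Coprs, -0.25 for Efna5, -0.26 for Cnnm4, -0.41 for Hykk and -1.02 for Slc6a16. In KO livers alone it was 2.27 for Cgref1, 0.91 for Xrcc4 and 0.30 for Efna5, and -0.04 for Kmt5a, -0.25 for Hykk, -0.31 for Lrrc14b, -0.78 for Wdr91, -0.91 for Coprs, -1.15 for Cnnm4 and -1.17 for Slc6a16. Slc6a16 and Hykk had values on 1 side of 0 and close to each other in both genotypes, while the Wdr91 and Coprs values were far from 0 in KO and nearer to it in WT. The KO value minus the WT value is the difference of the KO effect given above. Its chow side chose the genes, so nothing is read from it. Over both genotypes the values ran from -1.06 for Slc6a16 to 1.58 for Cgref1.

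The levels behind these values are given for 4 of the genes. Wdr91 averaged on chow 21.7 CPM ± 4.51 (SD, n = 6) in WT livers and 37.9 CPM ± 9.34 (SD, n = 7) in KO livers, and 20.8 CPM ± 2.06 (SD, n = 4) and 22.04 CPM ± 0.54 (SD, n = 4) on HFMCD, near the WT chow level. Coprs averaged 2.56 CPM ± 0.76 (SD, n = 6) and 4.43 CPM ± 0.61 (SD, n = 7) on chow and 2.22 CPM ± 0.35 (SD, n = 4) and 2.36 CPM ± 0.69 (SD, n = 4) on HFMCD. For Kmt5a it was the KO chow level, 44.1 CPM ± 7.46 (SD, n = 7), that both HFMCD groups were near, WT with 42.8 CPM ± 2.64 (SD, n = 4) and KO with 43.0 CPM ± 4.08 (SD, n = 4), while WT chow livers averaged 28.8 CPM ± 2.90 (SD, n = 6). Slc6a16 was ordered WT chow, KO chow, WT HFMCD and KO HFMCD, with means of 3.75 CPM ± 0.94 (SD, n = 6), 1.995 CPM ± 0.54 (SD, n = 7), 1.84 CPM ± 0.15 (SD, n = 4) and 0.89 CPM ± 0.14 (SD, n = 4), and the middle pair of groups overlapped.

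**Figure D4:**
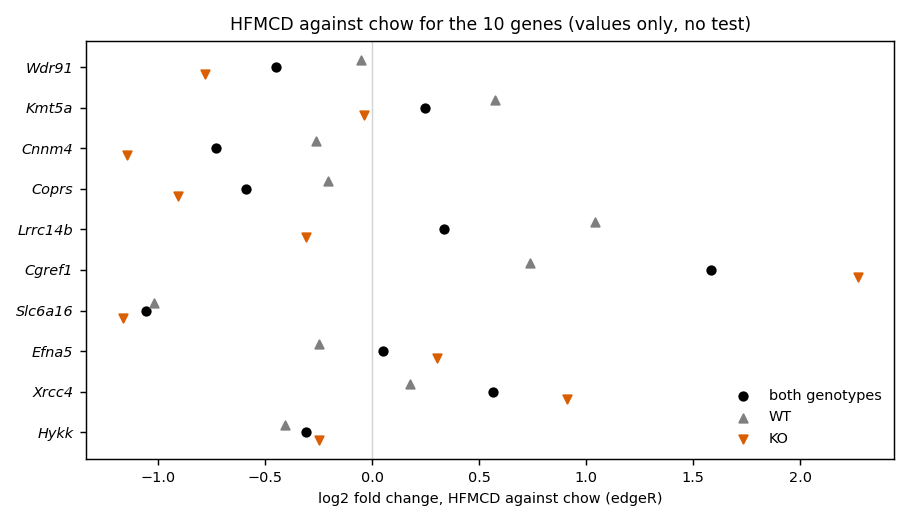
Log2 fold change of HFMCD against chow (x axis) for each gene (y axis) over both genotypes (circles) and in WT and KO alone (triangles), as values without a test. The WT and KO triangles lie farthest apart for Cgref1 and Lrrc14b and nearest to each other for Slc6a16 and Hykk. The distance between the triangles holds the chow values that chose the genes, so nothing is read from it.

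Partners of the 10 genes were followed in 8 lists of their pathways and families, the 10 genes left out. On chow 3 of 20 genes of non-homologous end joining, the pathway of Xrcc4, fell and 0 rose, where 1.61% of all genes tested fell and 0.561% rose, with a median log2 fold change of -0.06 over the list and 0.01 over all genes tested. Xrcc5, which encodes the Ku80 subunit that holds broken ends, fell by 0.44 (SE 0.09, edgeR adjusted p = 0.014). WT livers averaged 21.8 CPM ± 1.69 (SD, n = 6) of it and KO livers 16.1 CPM ± 2.44 (SD, n = 7). Tdp1, which cleans blocked DNA ends, fell by 0.63 (SE 0.16, edgeR adjusted p = 0.037), and Dntt, the template-independent polymerase known from lymphocytes, by 1.05 (SE 0.24, edgeR adjusted p = 0.028). On HFMCD 0 of the 20 were called; Xrcc5 was at 0.22 (SE 0.11, edgeR adjusted p = 0.49), against its chow direction and like Xrcc4, and its KO livers lay above its WT livers without overlap.

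Of 20 genes listed around lysine and hydroxylysine breakdown, the pathway of Hykk, 3 fell on chow and 0 rose, against the same 1.61% and 0.561% of all genes, with a median of -0.18. The list also holds Plod1, Plod2, Plod3, Colgalt1 and Colgalt2, which form or glycosylate hydroxylysine and do not break it down. None of these was among the 3 that fell. With the chow libraries alone none of the 3 was called (adjusted p from 0.10 to 0.11). They were Aadat (-0.42, SE 0.11, edgeR adjusted p = 0.037), the aminotransferase of aminoadipate, Dlst (-0.37, SE 0.09, edgeR adjusted p = 0.034), a subunit of the oxoglutarate and oxoadipate dehydrogenases, and Slc25a21 (-0.40, SE 0.09, edgeR adjusted p = 0.029), the mitochondrial carrier of oxoadipate. On HFMCD 0 of the 20 were called, with a median of -0.10, and Aadat, Dlst and Slc25a21 were at -0.22, -0.18 and -0.17. Both medians lay under those of all genes tested (0.01 on each diet).

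In the list around Wdr91, the class III phosphatidylinositol 3-kinase and late endosomes, 1 of 30 genes fell on chow and 0 rose. This was Vps41, a subunit of the HOPS tethering complex (-0.31, SE 0.08, edgeR adjusted p = 0.036); on HFMCD it was at -0.02 (SE 0.098, edgeR adjusted p = 0.98). Of 18 tested genes of histone H4 lysine 20 methylation 0 were called on either diet (edgeR). Dtl, whose product marks Kmt5a protein for destruction, was at 1.49 (SE 0.45, edgeR adjusted p = 0.082) on chow and 0.83 (SE 0.35, edgeR adjusted p = 0.42) on HFMCD. Its level on chow was very low, with means of 0.09 CPM in WT and 0.27 CPM in KO livers. The smallest p of this list on HFMCD was that of Pcna (0.35, SE 0.11, edgeR adjusted p = 0.19). No gene was called by edgeR on either diet among 17 of arginine methylation around PRMT5, 19 of magnesium transport, 9 SLC6 transporters and 13 ephrins and Eph receptors. The smallest p-values on chow belonged to Slc41a2 (-0.67) and Nipal3 (-0.43) among the magnesium transporters, Slc6a8 (0.43) and Slc6a12 (-0.36) among the SLC6 transporters, and Epha4 (0.81) and Ephb6 (0.65) among the Eph receptors. Among the genes of arginine methylation the smallest was that of Prmt9, an arginine methyltransferase, at -0.32 (SE 0.09, edgeR adjusted p = 0.056) on chow, with every KO liver below every WT liver, and 0.19 (SE 0.11, edgeR adjusted p = 0.58) on HFMCD. On HFMCD the smallest belonged to Nipal2 (1.21) and Slc41a1 (0.36), Slc6a6 (0.27) and Slc6a9 (-0.35), Ephb6 (0.73) and Epha2 (-0.51), and Snrpd1 (0.39). Of these, Nipal2 (edgeR adjusted p = 0.40) and Ephb6 (edgeR adjusted p = 0.52) had every KO liver above every WT liver. Prmt5 itself, the enzyme that Coprs brings to histones, was at -0.18 (SE 0.09, edgeR adjusted p = 0.297) on chow. Cnnm3, the family member that lies 3103 bases from Cnnm4, was at -0.08 (SE 0.07, edgeR adjusted p = 0.60).

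These chow calls among partners depended on the libraries in the fit. With the 13 chow libraries fitted alone, edgeR called 0.0141% of genes, where the fit to 21 libraries called 2.17%, and none of the 7 partners was called, with adjusted p-values from 0.076 for Xrcc5 to 0.12 for Tdp1. In fits that left out 1 of the 21 libraries, Xrcc5 kept its call in all 21, and the other 6 partners in 13 to 15. The libraries whose absence ended a call were KO chow replicates 1, 2, 3, 4 and 6 and WT chow replicates 1, 2, 4, 5 and 6.

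**Figure D5:**
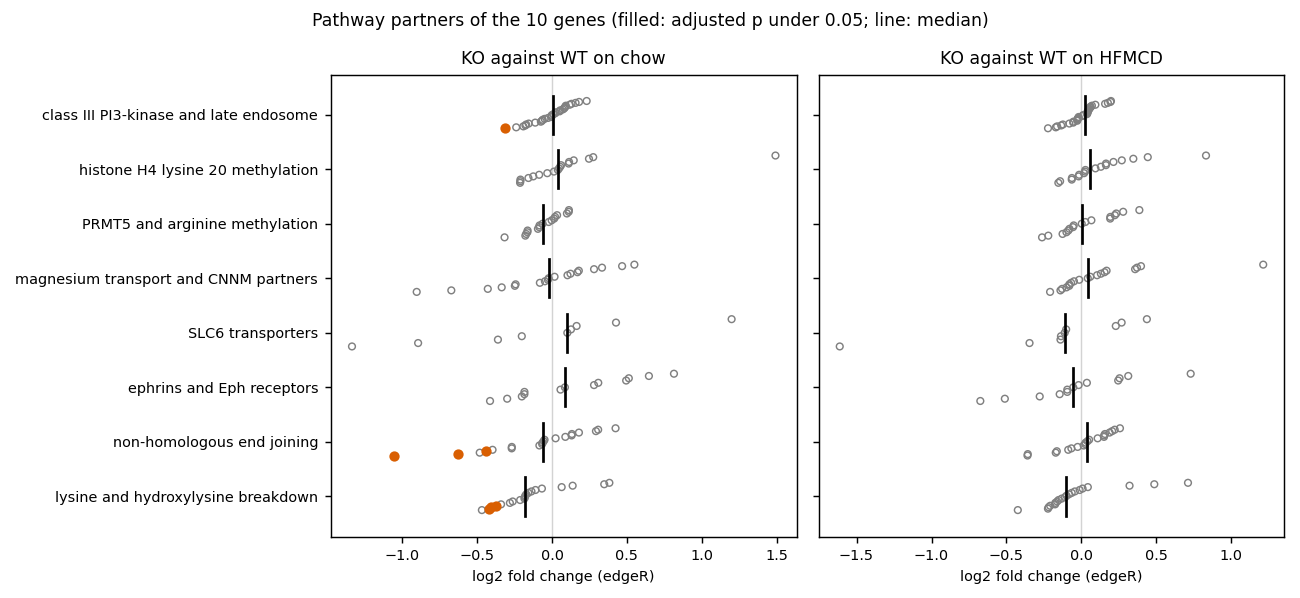
Log2 fold changes of KO against WT (x axis) on chow (left) and HFMCD (right) for the tested genes of 8 lists (y axis), with called genes filled and the list's median as a line. All 7 called genes lie on the chow side and below 0, in the lists of end joining, lysine breakdown and late endosomes.

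The nearest tested genes on either side of the 10 were mostly near 0 on chow. Of these 20 flanking genes 1 was called, where 2.17% of all genes were: Fbxl17, an F-box gene 176135 bases from Efna5, fell by 0.47 (SE 0.12, edgeR adjusted p = 0.036; 0.11 with the chow libraries alone), and on HFMCD it was at -0.09 (SE 0.15, edgeR adjusted p = 0.91). Slc6a21, an SLC6 gene 4146 bases from Slc6a16 on the same strand, had log2 fold changes of -0.89 (SE 0.30, edgeR adjusted p = 0.12) on chow and -0.70 (SE 0.49, edgeR adjusted p = 0.69) on HFMCD, without passing the test. It averaged 1.19 CPM in WT and 0.65 CPM in KO on chow and 0.26 and 0.16 CPM on HFMCD. Psma4, 866 bases from Hykk, was at -0.11 (SE 0.06, edgeR adjusted p = 0.39) on chow and 0.12 (SE 0.08, edgeR adjusted p = 0.69) on HFMCD.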

How the data were processed

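RNA was measured by sequencing of 21 libraries from whole mouse liver. The deposited values are raw counts per gene, 1 table per sample; CASAVA 2.17, STAR 2.6.1d and featureCounts 1.6.1 are named, with the GRCm38 build, in the submitters' processing notes. The strand setting, annotation release and filters are not given in the sources used here.

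Counts were tested in edgeR 4.0.16 (R 4.3.3) by the quasi-likelihood F test with TMM scaling, the default low-count filter, robust dispersions and 4 group means over all libraries, with Benjamini-Hochberg adjustment over 15677 genes and a threshold of 0.05. DESeq2 1.42.0, limma-voom (limma 3.58.1), other scalings and filters, and the omission of libraries were alternatives. CPM use TMM library sizes, and log2 CPM a prior count of 2. The workflow was tested on simulated data. In the contrast of diets, groups were weighted by their number of libraries; a test of it had been set for the 10 genes but is not given, since KO chow libraries enter it.

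The 10 genes and all lists of partners and markers were chosen with earlier results of these data known. Named beside them are Mboat7, up to 4 called partners per list or else those with the smallest p, exon overlaps, flanking tested genes, the genes just outside the rule and the 2 most alike genes. Positions are from GENCODE M21, which held all 55418 symbols. Sample totals ran from 17502231 to 25822972 counts, and no pair of libraries within a group was identical.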

Additional observations from a re-analysis of the deposited data

Results flagged for a closer look

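Each of the 4 groups was searched for a liver far from the rest in the 10 genes and Mboat7, 44 sets of values in all, where chance alone picks about 1 in 20. Slc6a16 stood at 5.65 CPM in WT chow replicate 6, whose nearest liver of the same group was at 3.54 CPM, and at 3.08 CPM in KO chow replicate 2, next to 2.14 CPM. Without either of these 2 libraries the HFMCD difference of Slc6a16 passed the edgeR threshold. Wdr91 stood at 23.9 CPM in WT HFMCD replicate 4, next to 20.1 CPM, and without that liver the HFMCD groups of Wdr91 did not overlap. Lrrc14b stood at 4.33 CPM in KO chow replicate 7, the library with skeletal muscle transcripts, next to 2.46 CPM.

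Lrrc14b was also picked out because every KO liver lay above every WT liver on chow and below every WT liver on HFMCD. On chow it rested on 22 to 33 reads per WT library and 31 to 95 reads per KO library. Without the low-count filter its chow groups overlapped. The KO effect on HFMCD minus that on chow was -1.35 on the log2 scale. The difference was not tested, since the chow values chose the gene.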

How the results depend on the processing

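Of 34 alternatives, 21 of which left out 1 library, 32 applied to each result, and most kept the results on the 10 genes. The count called on HFMCD (0) became 1, Slc6a16 each time, under DESeq2, limma-voom, the HFMCD libraries alone and the omission of KO chow replicates 1 and 7 together, and was 0 to 1 when 1 library was left out. The count of genes apart on HFMCD in their chow direction (2) was 2 to 4 without 1 library, and their median change (0.08) 0.016 to 0.10. The chow log2 values kept their direction and moved by less than 1 SD of the KO livers in every alternative. Only 7 of the 10 genes stayed apart on chow under upper-quartile scaling, where Coprs, Efna5 and Xrcc4 overlapped. Efna5 also overlapped with RLE scaling, library totals, no low-count filter, at least 1 CPM in 4 libraries, and the chow libraries alone. With library totals Xrcc4 overlapped too, and with no low-count filter Lrrc14b did. Coprs and Efna5 both overlapped without KO chow replicate 2, 3 or 6, or WT chow replicate 2, 4, 5 or 6. Kmt5a turned sign on HFMCD without the low-count filter (-0.0074) and with the HFMCD libraries alone (-0.0044), and ran from -0.032 to 0.070 without 1 library, as Coprs did from -0.091 to 0.25. The HFMCD value of Vps41 was 0.050 with library totals and ran from -0.070 to 0.022 without 1 library. The share of all genes called moved far more. On HFMCD (0.319%) it was 1.23% under DESeq2, 2.05% under limma-voom and for HFMCD libraries alone, 0.204% with RLE and 0.179% with upper-quartile scaling, 0.0895% with no filter, 0.191% with dispersions not robust, 0.906% without KO chow replicates 1 and 7, 1.13% without these and WT chow replicates 3 and 5 (the 4 libraries rich in Dmbt1), and 0.00626% to 0.481% without 1 library. On chow (2.17%) it was 4.5% under DESeq2, 0.721% under limma-voom, 1.41% with library totals, 0.955% with no filter, 0.0141% for chow libraries alone, 0.926% and 1.22% without those 2 and those 4 libraries, and 0.313% to 3.91% without 1 library. For diet (76.5%) it was 47.8% with no filter, where more genes were tested. The cause was not tested for the others. No paired analysis was possible because the sample titles carry a different number for each sample. Slc6a16 rests on 20 to 51 reads per HFMCD library, and whether depth or the spread between libraries sets its interval was not tested.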

Other observations

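With the mean of each group taken off, the 10 genes varied together only in part over the 21 libraries. Pearson's r of log2 CPM was -0.86 for Wdr91 and Cgref1, -0.73 for Wdr91 and Hykk, 0.70 for Wdr91 and Kmt5a and 0.67 for Efna5 and Hykk, while Cnnm4 stayed between -0.30 and 0.18 with each of the other 9. These values describe libraries that share processing and depth, and no p is given.

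The genes most like each member, by the same r over all genes tested, were Bpnt1 (0.94) and Tmem62 (0.90) for Cgref1, Igsf8 (0.91) and Atp6v0b (0.86) for Coprs, and Prkcd (0.88) and Map4k2 (0.87) for Wdr91. They were Gzf1 (0.88) and Gatd1 (0.88) for Hykk, Fbxo40 (0.83) and Fam172a (0.82) for Lrrc14b, and Ccdc159 (0.82) and Serpina3n (0.79) for Xrcc4. The closest were Ubqln4 (0.79) and Cyb5b (0.78) for Kmt5a, Noc3l (0.76) and Gm42732 (0.75) for Cnnm4, 2410131K14Rik (0.74) and Cdcp1 (0.74) for Slc6a16, and Snx6 (0.73) and Mtus2 (0.73) for Efna5. Fbxo40, a gene known from muscle, is near the low level of Lrrc14b at a mean of 0.88 CPM over all libraries, and KO chow replicate 7 enters both.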
